A study of Mus musculus with 2 samples.

Results

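Immunoglobulin heavy and light chain genes were examined in RNA-seq of BM LSKs of Scl/tTA-BA mice, a tet-off model of chronic myelogenous leukemia on the C57BL/6 background. Here the transactivator tTA, under Scl control, turns on the BCR/ABL (BA) transgene in stem and progenitor cells of the blood when the mice are taken off doxycycline. LSKs are lineage-negative BM cells sorted for Sca1 and c-Kit after magnetic lineage depletion and staining with a lineage antibody panel. The week-0 library came from mice still fed doxycycline and the week-3 library from mice 3 weeks after its withdrawal, and each library pooled the LSKs of 3 mice, all of them carrying the transgenes. The members are every row whose name marks it as a heavy, kappa or lambda chain gene segment and that held at least 1 read in either library. They were 178 of the 34745 genes in the tables, and the reads of the libraries themselves therefore chose them. With 1 library per time point, the spread between mice is unknown, no test was made and no p-value is given.

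An antibody is built of heavy and light chains, and each chain joins a variable (V) part that binds antigen to a constant (C) part that sets its class. In developing B cells, DNA recombination joins a V segment to a joining (J) segment, with a diversity (D) segment between them in the heavy chain, so that each B cell clone transcribes its own choice of V gene. The heavy chain class is IgM or IgD at first and can change to IgG, IgA or IgE, while the light chain is either kappa or lambda. Plasma cells, which secrete antibody, are known to devote a large part of their mRNA to these genes. Unrearranged segments can also be transcribed at a low level in lymphoid progenitors.

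In the mouse, the heavy chain genes lie on chromosome 12, the kappa genes on chromosome 6 and the lambda genes on chromosome 16. The last 30 bases of the germline V transcripts of the 12 functional V genes named by their read numbers are shown here, because these bases distinguish the genes that carried most V reads. They were read 5′ to 3′ from GENCODE M21 (GRCm38), and capitals mark the last in-frame cysteine codon, at which the third complementarity-determining region, the most variable antigen-contacting loop, opens.
Igkv14-126: ttacTGTctacagcatggtgagagccctcc
Igkv12-89: ttacTGTcaaaatgtgttaagtactcctcc
Igkv12-98: ttacTGTcaacaactttacagtactcctct
Igkv15-103: ctacTGTcaacagggtcaaagttatcctct
Igkv8-30: ttacTGTcagcaatattatagctatcctcc
Igkv1-88: ttacTGCttacaaggtacacatcagcctcc
Igkv3-10: ttacTGTcagcaaaataatgaggatcctcc
Igkv1-110: tttcTGCtctcaaagtacacatgttcctcc
Iglv1: ttcTGTgctctatggtacagcaaccatttc
Ighv11-2: ggacacagccacgtatttcTGTatgagata
Ighv1-55: gaggactctgcggtctattacTGTgcaaga
Ighv7-1: actgccatttattacTGTgcaagagatgca

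The gamma constant genes, which encode the IgG subclasses, resemble each other closely. The first 30 bases of their GENCODE M21 transcripts are shown because the subclasses differed in how they compared between the libraries. Capitals mark bases that differ from Ighg2b.
Ighg2b: ccaaaacaacacccccatcagtctatccac
Ighg1: ccaaaacGacacccccatcTgtctatccac
Ighg2c: ccaaaacaacaGccccatcGgtctatccac
Ighg3: cTaCaacaacaGccccatcTgtctatccCT
Ighg1 and Ighg2c each differed from Ighg2b at 2 of these 30 bases, and Ighg3 differed at 6. No constant gene shared a stretch of 100 bases, the length of a read, with a transcript of another gene in GENCODE M21.

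On genes, 6356164 reads were counted at week-0 and 3886695 at week-3. Levels are given as RPM, the reads of a gene per 1000000 reads on genes, or as FPKM, which also divides by transcript length. The floor used here for a count of 0 was 3 reads, which is 0.472 RPM in the first library and 0.772 RPM in the second. The 9 LSK markers examined were above 0 in both libraries, with 1391 and 580 reads of Kit, which encodes c-Kit, and 434 and 199 of Ly6a, which encodes Sca1. Among these genes, Flt3, Procr and Mecom were at least 2-fold lower at week-3 and Slamf1 was at least 2-fold higher, and the median log2 ratio of the list was -0.75. Of the B cell surface markers, Ms4a1 had 9 reads and Cd22 had 1 at week-0, while Cd79a and Cd79b, the signalling subunits of the B cell receptor, had 114 and 314.

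All 3 immunoglobulin loci were lower at week-3, the light chain loci by more than the heavy chain locus. The heavy chain locus took 0.510% of all reads at week-0 compared with 0.0552% at week-3, a 9.24-fold lower share with a 95% interval of 8.84 to 9.66. The kappa locus took 0.612% and 0.0300%, which is 20.4-fold lower with an interval of 19.3 to 21.6. The lambda locus took 0.0387% and 0.00175%, or 22.1-fold lower with an interval of 17.4 to 28.6. The intervals of kappa and lambda overlapped each other and neither overlapped that of the heavy chain. These intervals are exact Clopper-Pearson intervals on read numbers and cover counting error only, since PCR reads without molecular identifiers are not independent molecules. In bulk samples such as these, fewer cells of a type and less RNA per cell cannot be told apart.

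Of the 178 members, 106 had at least 10 reads over both libraries, 52 had 2 to 9 reads and 20 had exactly 1 read, the lowest number the rule accepts. Just outside the rule lay 219 rows of matching name with 0 reads in both libraries. Among the 106 members with at least 10 reads, 101 were at least 2-fold lower in RPM at week-3, against 17.9% of the 13689 genes of the libraries with at least 10 reads. A further 2 members, Ighg3 and Ighv2-5, were at least 2-fold higher, against 11.9% of those genes. The remaining 3, Ighv1-25, Ighv1-23 and Ighv2-2, met neither limit. The median log2 ratio of the 106 members was -3.08 with genes at 0 set to the floor, beside 0.05 over all 13689 genes. A gene with many reads in either library passes the limit of 10 reads, so that the members counted were in part selected by their level at week-0.

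Of the members, 67 were detected in both libraries, 95 in the week-0 library only and 16 in the week-3 library only. Membership needs only 1 read, and the week-3 library is the shallower one, with 3886695 reads on genes against 6356164. Genes with few reads can therefore be missed in 1 library through counting error alone. The matching split over all genes is not given here, so these numbers do not set the members apart from other genes. Of the 95 members seen at week-0 only, 53 had at least 10 reads, up to 563 for Ighg2c. The 16 members seen at week-3 only held 33 reads together, of which Ighv2-5 held 10 and no other gene more than 3. The 48 genes called lower that kept reads in both libraries were 2.88-fold to 245-fold lower, with a median of 13.0-fold.

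**Figure D1:**
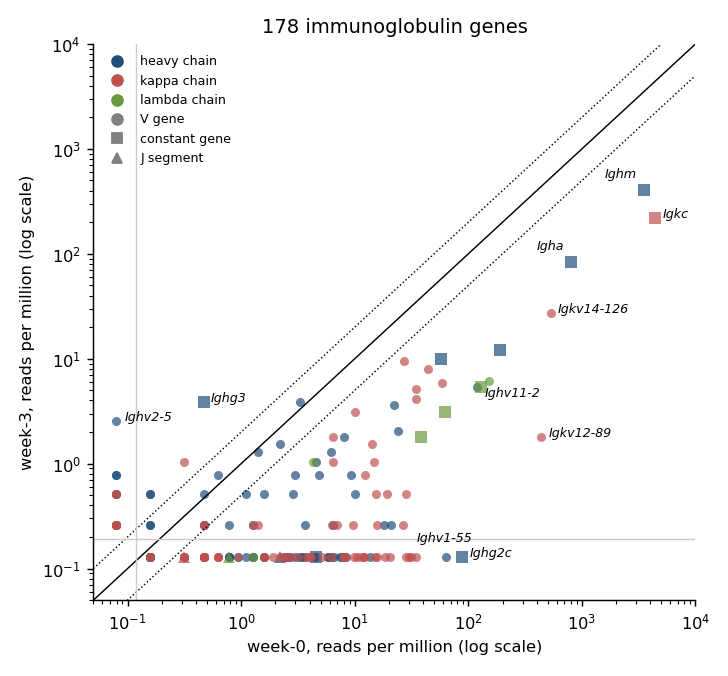
RPM at week-0 (x axis, log scale) and at week-3 (y axis, log scale) for the 178 immunoglobulin genes, coloured by chain and shaped by segment, with genes at 0 reads drawn outside the grey lines. The solid line marks equal values and the dotted lines a 2-fold difference. Most genes lie below the lower dotted line, while Ighg3 and Ighv2-5 lie above the upper one.

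By segment, the tables held 185 heavy V rows, 20 heavy D, 4 heavy J and 8 heavy constant rows, of which 83, 0, 1 and 7 had reads. The kappa locus had 162 V rows, 5 J and 1 constant row, of which 78, 1 and 1 had reads. The lambda locus had 3 V rows, 5 J and 4 constant rows, of which 3, 1 and 3 had reads. Thus no D segment was detected, and the J segments, which are under 100 bases long and shorter than an untrimmed read, were near the floor. Ighj1 had 14 reads at week-0 against 0 at week-3. It was 2.85-fold lower with the 0 set to the floor, and its interval starts at 2.03-fold lower. Iglj1 had 5 and 0 reads, and Igkj5 had 2 and 0.

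Constant genes held 59148 of the 73766 immunoglobulin reads at week-0 and 2900 of 3378 at week-3. At least 2-fold lower were 10 of the 11, against 17.9% of all genes with at least 10 reads. Per length of transcript, Igkc, the kappa constant gene on chromosome 6 at 70726435 to 70726966, had the highest level, with an FPKM of 8329 at week-0 and 416 at week-3. It had 28166 and 861 reads, and the interval of its change was 18.7-fold to 21.4-fold lower. By FPKM, Igkc ranked 2 among all genes at week-0 and 110 at week-3. The 3 lambda constant genes followed the same direction. Iglc1 had 823 and 21 reads (FPKM 285 and 11.9), Iglc3 had 399 and 12 (FPKM 139 and 6.83), and Iglc2 had 244 and 7 (FPKM 36.1 and 1.69). Their folds of 24.0, 20.3 and 21.3 lower had intervals that overlapped each other and that of Igkc.

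Ighm, which encodes the IgM heavy chain, lies on chromosome 12 at 113418558 to 113422730 on the minus strand. It had 22231 reads at week-0 against 1573 at week-3, with FPKM of 1576 and 182. It was 8.64-fold lower with an interval of 8.21 to 9.10, a smaller change than that of Igkc. Igha, the IgA heavy chain gene, had 5109 and 325 reads (FPKM 268 and 27.9) and was 9.61-fold lower with an interval of 8.59 to 10.8, which overlaps that of Ighm. Ighd, the IgD heavy chain gene of naive B cells, had only 29 reads at week-0 against 0 at week-3. It was 5.91-fold lower with the 0 set to the floor, and its interval starts at 4.51-fold lower. The row for Ighe, which encodes the IgE heavy chain, was at 0 in both libraries.

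The IgG subclasses differed from each other. Ighg2b had 1214 reads at week-0 against 47 at week-3 (FPKM 63.8 and 4.04), and was 15.8-fold lower with an interval of 11.8 to 21.6. Ighg2c had 563 reads and 0 (FPKM 45.9 and 0). It was 115-fold lower with the 0 set to the floor, and its interval starts at 93.0-fold lower. Ighg1 had 367 and 39 reads (FPKM 19.9 and 3.45), and was 5.75-fold lower with an interval of 4.13 to 8.22, which does not overlap that of Ighg2b. Ighg3 went the other way, with 3 reads at week-0 against 15 at week-3 (FPKM 0.436 and 3.57), a week-3 to week-0 ratio of 8.18 with an interval of 2.31 to 44.1. Ighg3 was the only constant gene with more reads at week-3, and its 15 reads were 0.750% of the 1999 heavy constant reads of that library.

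**Figure D2:**
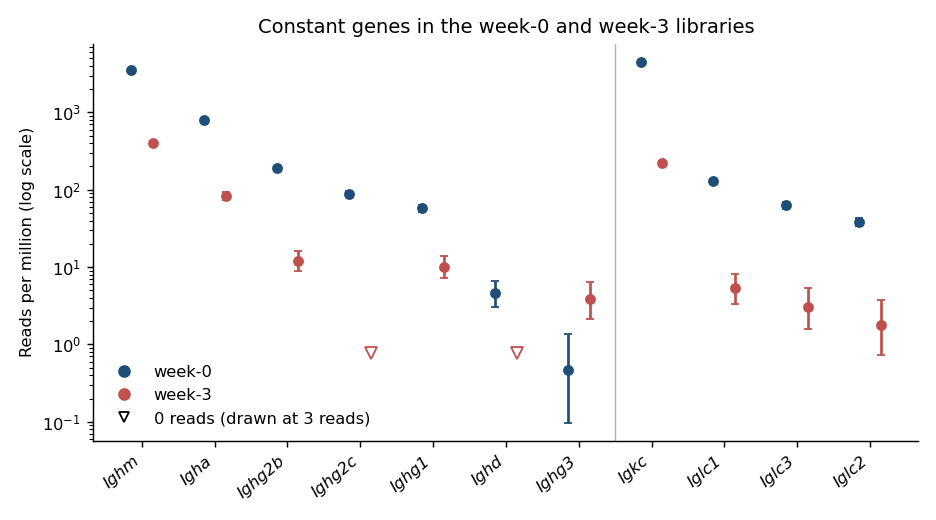
RPM on a log scale (y axis) of the 7 heavy constant genes (left of the grey line) and 4 light constant genes (right) in the week-0 (blue) and week-3 (red) libraries, with bars for 95% exact counting intervals. Open triangles mark genes at 0 reads, drawn at the floor of 3 reads. Week-3 values lie below week-0 values for every gene except Ighg3.

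Within each library, the make-up of the heavy chain classes changed less than their total. IgM (Ighm) held 75.3% of the heavy constant reads at week-0 (74.8 to 75.8) and 78.7% at week-3 (76.8 to 80.5). IgA held 17.3% (16.9 to 17.7) and 16.3% (14.7 to 17.9), which overlap. The 4 IgG genes together held 7.27% (6.98 to 7.58) and 5.05% (4.13 to 6.11), which do not. Without Ighg2c, the share of the other IgG genes was 5.47% (5.21 to 5.74) and 5.05%, which overlap. Without Ighg2b, it was 3.30% (3.09 to 3.51) and 2.77% (2.08 to 3.59), which also overlap. The intervals stayed apart without Ighg1 or without Ighg3. Among the IgG genes, Ighg2c went from 1.91% to 0 of 1999 reads, for which the interval reaches 0.184%, and Ighg2b went from 4.11% (3.89 to 4.35) to 2.35% (1.73 to 3.11). Ighg1 held 1.24% (1.12 to 1.38) and 1.95% (1.39 to 2.66).

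The balance of the 2 light chains was similar in the libraries, whereas that of light to heavy chains was not. There were 15.8 kappa reads for each lambda read at week-0 (15.2 to 16.5) and 17.1 at week-3 (13.4 to 22.2). Over the V genes alone, the ratio was 10.8 at week-0 and 10.9 at week-3. In contrast, there were 1.27 Igkc reads for each Ighm read at week-0 (1.24 to 1.29) and 0.547 at week-3 (0.503 to 0.595). The 4 light constant genes had about as many reads as the 7 heavy ones at week-0 (29632 and 29516) and 0.451 reads for each heavy constant read at week-3 (0.416 to 0.488). Accordingly, the heavy locus held 43.9% of the immunoglobulin reads at week-0 compared with 63.5% at week-3, while the kappa locus held 52.8% and 34.5%.

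V genes held 14597 reads at week-0 against 478 at week-3, an 18.7-fold lower share. Of the 94 V genes with at least 10 reads, 90 were at least 2-fold lower, 1 was higher and 3 met neither limit. Over all genes with at least 10 reads, 17.9% were lower and 11.9% higher. V genes with many reads at week-0 pass the limit of 10 reads by their week-0 level alone. By chain, these were 37 lower, 1 higher and 3 neither for heavy V, 51 lower for kappa V and 2 lower for lambda V. The summed heavy V reads were 12.1-fold lower (10.2 to 14.4) and the kappa V reads 21.5-fold lower (19.2 to 24.2).

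A pair of kappa genes dominated the V reads of the week-0 library. Igkv14-126, on chromosome 6 at 67896172 to 67896642, had 3390 reads at week-0 against 107 at week-3 (FPKM 1490 and 76.9). It led the kappa V genes in both libraries, with 31.5% of their reads at week-0 (30.7 to 32.4) and 35.1% at week-3 (29.7 to 40.7), and was 19.4-fold lower. Igkv12-89, at 68834846 to 68835307, had 2799 reads and 7 (FPKM 696 and 2.85). Its share of the kappa V reads went from 26.0% (25.2 to 26.9) to 2.30% (0.928 to 4.67), and its own interval of 119-fold to 609-fold lower lay outside that of every other named V gene with reads in both libraries. Without Igkv12-89, the other kappa V genes together were 16.3-fold lower (14.5 to 18.4).

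The heavy chain partner known for Igkv14-126 is Ighv11-2, since the pair forms the antibody against phosphatidylcholine that is typical of B-1a cells, a self-renewing B cell type that makes natural IgM. Ighv11-2, on chromosome 12 at 114048241 to 114048812, was the leading heavy V gene in both libraries, with 763 reads at week-0 against 21 at week-3 (FPKM 260 and 11.7). It held 26.7% of the heavy V reads at week-0 (25.1 to 28.3) and 14.5% at week-3 (9.19 to 21.3). There were 4.44 Igkv14-126 reads for each Ighv11-2 read at week-0 (4.11 to 4.81) and 5.10 at week-3 (3.17 to 8.57), so that the ratio differed by less than the counting error. Bulk reads do not show whether the 2 genes were used in the same cells. For Ighv11-2, 17.4% of the 100-base stretches of its transcript also occur in another transcript, so that a part of its reads could belong to a near-identical gene.

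Among the leading V genes of week-0, 2 were not detected at week-3. Ighv1-55 had 403 reads at week-0, 14.1% of the heavy V reads (12.8 to 15.4), and 0 of 145 at week-3. It was 82.1-fold lower with the 0 set to the floor, and its interval starts at 66.5-fold lower. Igkv12-98, of the same family as Igkv12-89, had 218 and 0 reads. It was 44.4-fold lower at the floor, with an interval that starts at 35.8-fold lower.

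Other leading V genes kept more of their reads. Igkv1-110 had 174 reads at week-0 against 37 at week-3, 2.88-fold lower (2.01 to 4.22), and its share of the kappa V reads went from 1.62% (1.39 to 1.88) to 12.1% (8.69 to 16.3). Igkv8-30 had 281 and 31 reads and was 5.54-fold lower (3.82 to 8.31). Ighv7-1 had 140 and 14 reads and was 6.11-fold lower (3.53 to 11.5). Igkv3-10 (218 and 20 reads), Igkv1-88 (219 and 16) and Igkv15-103 (375 and 23) were 6.67-fold, 8.37-fold and 9.97-fold lower. As for Ighv11-2, some reads of Igkv1-110 and Igkv3-10 could belong to other genes. Of their 100-base stretches, 16.2% and 19.0% also occur in another transcript. Iglv1, the main lambda V gene, had 957 and 24 reads (FPKM 385 and 15.8), 24.4-fold lower (16.3 to 38.2), and held 96.5% and 85.7% of the lambda V reads.

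Ighv2-5 was the only V gene called higher, with 0 reads at week-0 against 10 at week-3. It was 5.45-fold higher with the 0 set to the floor, and its interval starts at 3.67-fold higher. Ighv1-25, annotated as a pseudogene, had 21 reads and 15, a week-3 to week-0 ratio of 1.17 (0.560 to 2.38). The number of reads behind both is small.

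**Figure D3:**
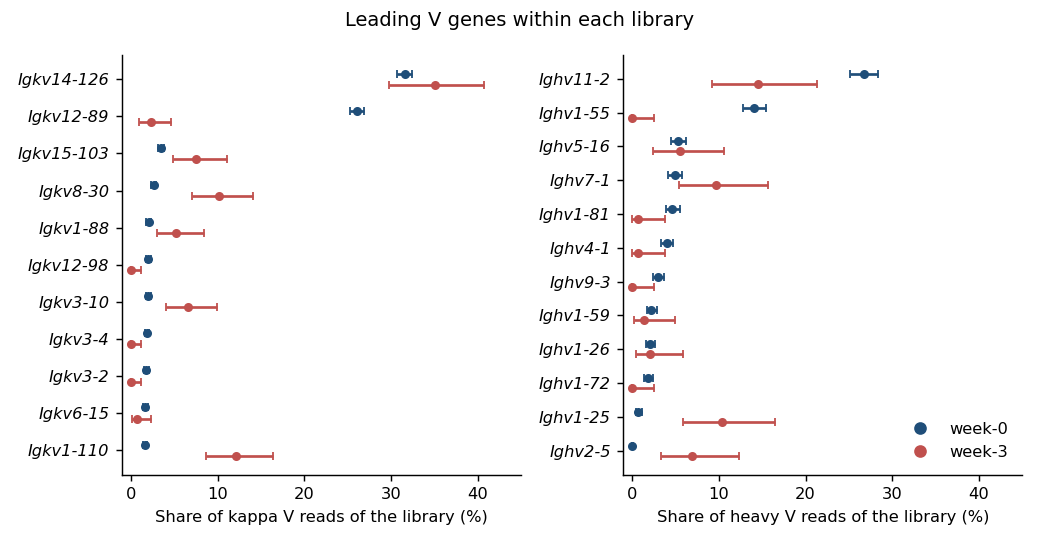
Share of the kappa V reads (left) and heavy V reads (right) of each library, in percent, held by the leading V genes at week-0 (blue) and week-3 (red), with bars for 95% exact counting intervals. Igkv14-126 led the kappa genes in both libraries, Igkv12-89 went from 26.0% to 2.30%, and Ighv1-55 went from 14.1% to 0.

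Grouped by V family, reads were found in 13 of the 16 Ighv families in the tables and 18 of the 20 Igkv families. At week-3, 10 Ighv and 14 Igkv families still had reads. Ighv1, the largest family, had reads on 53 of its 93 rows, and held 45.5% of the heavy V reads at week-0 (1302 reads) and 48.3% at week-3 (70 reads). Ighv11 held 27.2% and 14.5%, nearly all of it Ighv11-2.

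In some Igkv families, the size of the change could rest on a single gene. Igkv12 had 3255 and 22 reads on 9 genes and was 90.5-fold lower (59.7 to 145), but Igkv12-89 held most of these reads, and without it the family had 456 and 15 reads and was 18.6-fold lower (11.2 to 33.5). Igkv1 had 646 and 55 reads and was 7.18-fold lower (5.45 to 9.64), and without Igkv1-110 it had 472 and 18 reads and was 16.0-fold lower (10.03 to 27.3). Igkv8 had 508 and 37 reads and was 8.40-fold lower (6.01 to 12.1), and without Igkv8-30 it had 227 and 6 reads and was 23.1-fold lower (10.5 to 63.7). With these genes left out, a choice made after seeing the data, the intervals of the 3 families overlapped. Each gene was picked for its pull on its family, so this overlap was in part built in. Without Igkv12-44 instead, Igkv12 was 195-fold lower (106 to 407). Igkv4, the kappa family with the most genes that had reads (19), had 701 and 6 reads and was 71.4-fold lower (32.7 to 195). Whichever 1 of its genes was left out, Igkv4 was 59.5-fold to 107-fold lower. Igkv6 had 447 and 3 reads and was 91.1-fold lower (31.0 to 443). With any 1 of its genes left out, Igkv6 was 54.4-fold to 163-fold lower.

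Functional and non-functional V genes differed in how their reads compared between the libraries. The 146 V genes annotated as functional had 14546 reads at week-0 against 449 at week-3, 19.8-fold lower (18.0 to 21.8). The 18 V pseudogenes with reads, of 131 in the tables, had 51 and 29, 1.08-fold lower with an interval of 0.669 to 1.76 that includes equal levels. Of these reads, Ighv1-25 held 21 and 15, and without it the change was 1.31-fold lower (0.674 to 2.67). All but 1 of the pseudogenes had fewer than 10 reads.

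V reads came from the whole length of both V clusters. In the heavy locus, the 93 rows nearer to the J segments than the median of 1218 kb held 54.7% of the V reads at week-0 compared with 52.4% at week-3. In the kappa locus, the 81 rows nearer than the median of 1484 kb held 21.2% and 31.5%. The kappa imbalance lay with Igkv14-126 and Igkv12-89, both in the farther part. Without this pair, the nearer and the farther part had the same number of kappa V reads at week-0, 2278 each.

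**Figure D4:**
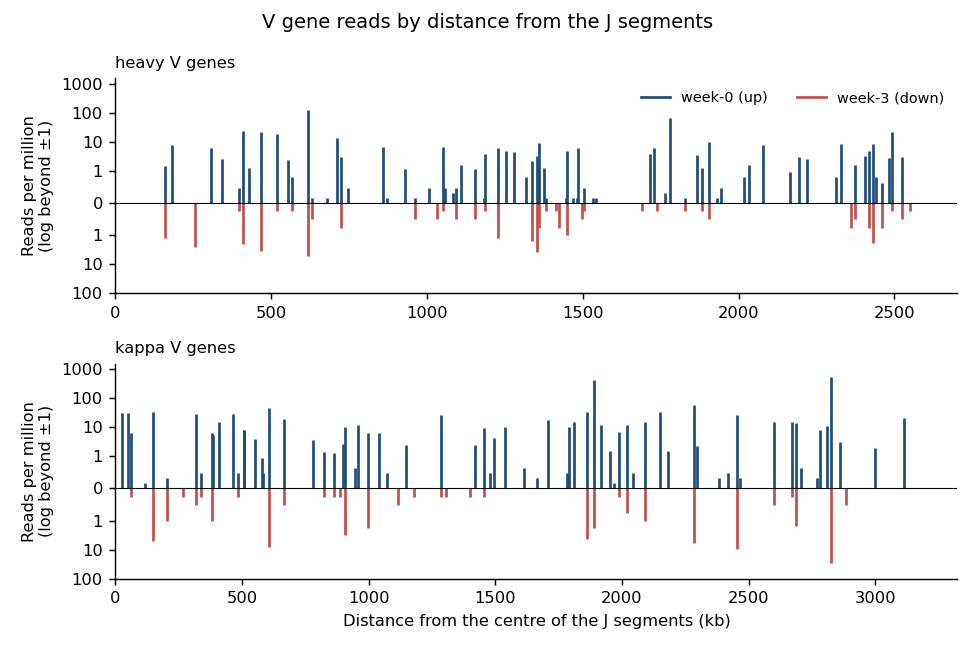
RPM of each heavy V gene (upper panel) and kappa V gene (lower panel) against its distance in kb from the centre of the J segments, with week-0 drawn upward in blue and week-3 downward in red, on an axis that is logarithmic beyond 1. Reads came from the whole length of both clusters at week-0, with far shorter bars at week-3.

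Genes known to act with the immunoglobulin genes were examined as lists. Over all 13689 genes, 17.9% were lower and 11.9% higher by the same limits. In the plasma cell list, 11 of 17 genes were at least 2-fold lower at week-3, 1 was higher and 5 met neither limit, with a median log2 ratio of -2.75 beside 0.05 over all genes. Jchain, which joins IgM and IgA into polymers, had 5120 reads at week-0 against 96 at week-3, a ratio of 0.0307 (0.0248 to 0.0375). This is lower than the ratio of Ighm or Igha, and its interval does not overlap theirs. Irf4 and Prdm1, transcription factors of plasma cell differentiation, had 42 and 39 reads at week-0 against 0 and 1 at week-3. Sdc1, which encodes the plasma cell surface marker CD138, had 155 and 17 reads. Xbp1, a factor of the secretory pathway also active in other cells, had 1454 and 837 reads, a ratio of 0.941, and Fkbp11, an endoplasmic reticulum folding enzyme, was higher, with 55 and 185 reads. The summed level of the list was 1643 RPM at week-0 against 881 at week-3, and 1 of its genes was at 0 at week-3. Jchain alone gave 806 and 24.7 RPM of these sums, and without it they were 837 and 857 RPM.

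In the B cell list, 8 of the 10 genes with at least 10 reads were at least 2-fold lower and 1 was higher, with a median log2 ratio of -2.14. Cd79a had 114 reads and 2, while Cd79b, its partner in the B cell receptor, had 314 and 216. Cd72, a surface inhibitor of B cells, had 514 and 120, and Ebf1, a factor of B cell commitment, had 15 and 1. Pou2f2, which encodes the octamer-binding factor Oct2, was the gene called higher, with 91 and 241 reads. The summed level of the 16 genes was 182 RPM at week-0 and 153 at week-3, or 101 and 122 RPM without Cd72. Of the defining markers, Ms4a1 (9 and 2 reads), Pax5 (5 and 2) and Cd22 (1 and 0) were at or near 0 in both libraries. The part of plasma cells or B cells in the immunoglobulin reads was not tested.

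Among genes of V(D)J recombination and the surrogate light chain, Dntt, the terminal transferase that adds bases at the joints, had 1589 and 325 reads, a ratio of 0.334. The recombinase genes Rag1 (9 and 0 reads) and Rag2 (1 and 5) were near the floor. The surrogate light chain genes Vpreb1 (16 and 9), Igll1 (11 and 5) and Vpreb2 (8 and 0), which pair with the first heavy chain of a B cell precursor, were also low. Of the 3 genes of this list with at least 10 reads, 1 was lower and 2 met neither limit, with a median log2 ratio of -0.43. In the class switching list, none of the 4 genes with at least 10 reads met a limit (median log2 ratio 0.22).

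Of the 16 B cell receptor signalling genes with at least 10 reads, 6 were lower, 1 was higher and 9 met neither limit, with a median log2 ratio of -0.44. Cd79a and Cd79b stand in this list and in the B cell list. Blnk, the adaptor that links the receptor to its downstream enzymes, had 37 and 1 reads, and Pik3ap1, an adaptor of PI3K signalling, had 555 and 53. Fc receptors, which bind the constant part of antibodies, went in the other direction. Of their 8 genes with at least 10 reads, 5 were higher and 2 lower, with a median log2 ratio of 1.70. Fcer1a, the IgE-binding chain of the mast cell and basophil receptor, had 1 read at week-0 and 465 at week-3, Fcgr3 had 236 and 558, and Fcgr2b, the inhibitory IgG receptor, had 174 and 292. Pigr, which carries polymeric IgA and IgM across epithelia, had 83 and 5, and Fcgrt, which protects IgG from degradation, had 233 and 71.

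Markers of T cells and plasmacytoid dendritic cells were also examined, although the lineage depletion and panel are meant to remove mature T cells. The T cell genes went from 14.6 to 8.23 RPM in sum, with 3 of the 4 genes with at least 10 reads lower (median log2 ratio -1.10), Trbc1 at 18 and 14 reads, and Cd3e (5 and 0 reads) and Cd8a (3 and 0) near the floor. The plasmacytoid dendritic cell genes went from 193 to 160 RPM, with 4 of 6 lower (median log2 ratio -1.39), among them Siglech with 21 and 3 reads, while Bst2 (944 and 473 reads) and Lair1 (101 and 117) met neither limit. The part of these cells in the results was not tested.

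**Figure D5:**
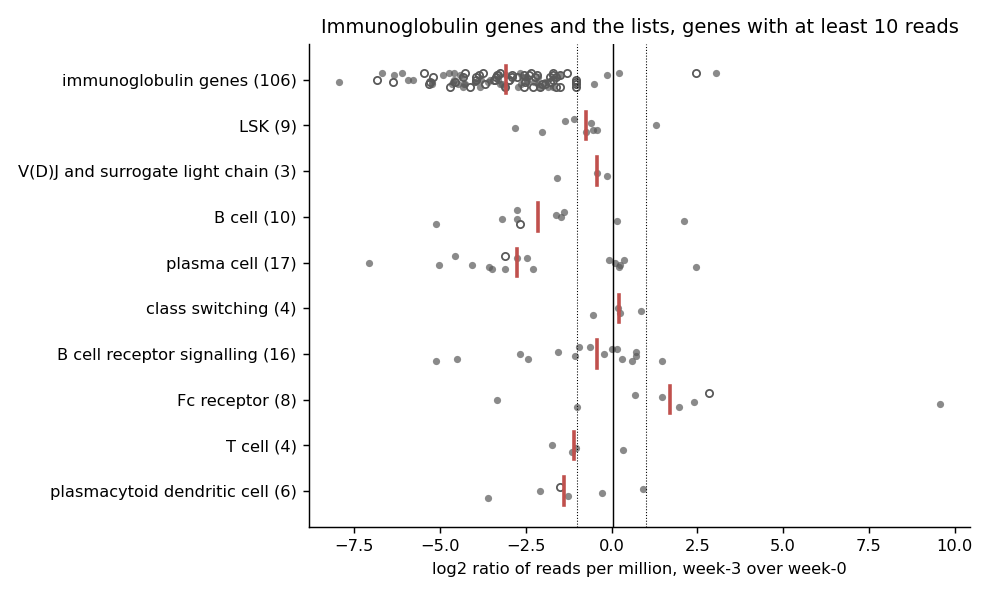
Log2 ratio of RPM, week-3 over week-0 (x axis), of the immunoglobulin genes and of the genes in each list (rows), for genes with at least 10 reads over both libraries, whose number is in brackets. Red bars mark medians, open circles genes at 0 reads in a library (set to the floor of 3 reads) and dotted lines a 2-fold difference. The medians of the immunoglobulin, plasma cell and B cell genes were -3.08, -2.75 and -2.14, and that of the Fc receptor genes was 1.70.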

How the data were processed

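RNA-seq of BM LSKs gave 1 library at week-0 and 1 at week-3, each a pool of 3 mice. Paired-end libraries from SMARTer-amplified cDNA were trimmed by the authors and mapped with TopHat2 2.0.9 (version from the submitters' processing notes) to GRCm38 (mm10). The authors deposited counts, whole numbers of reads per gene without normalization, and FPKM, scaled by exon length and by the reads of the library. The counting tool, its annotation and its treatment of reads with several matches or of strand are not given in the sources used here, so reads of overlapping antisense transcripts cannot be told apart. There were 0 further columns of sample values.

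The tables were joined by Ensembl identifier. All 178 members were found in GENCODE M21, 177 with identical coordinates (not Ighg3), and biotypes, strands and sequences come from there. RPM are reads per 1000000 reads on genes. Ratios are week-3 over week-0, with exact Clopper-Pearson intervals at 95% and a floor of 3 reads for a library at 0. Genes with at least 10 reads over both libraries and a ratio of at most 0.5 or at least 2 were called lower or higher. With 1 library per time point no test was fitted. Exact shared stretches of 100 bases between transcripts were counted on both strands. Procedures were tested on simulated counts that held counting error only, with changes planted in genes with enough expected reads. The simulation held no spread between mice or from amplification, so it does not show how the procedures act under these.

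The named genes are every constant gene and J segment with reads, the 10 V genes with the most reads in each library (13 in all), members called higher and list genes with at least 10 reads. Members called in neither direction, J segments, defining markers near 0 and genes in figure labels were added after their values were seen. The members and lists were chosen with earlier results of these data known. Results for some genes of the lists are not reported here. Alternatives were TMM scaling (edgeR 4.0.16), median-of-ratios scaling (DESeq2 1.42.0), summed FPKM, other limits and parts of the loci. Software was R 4.3.3 and Python 3.11.15 with scipy 1.17.1, pandas 2.3.3, matplotlib 3.10.9 and numpy 2.4.6.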

Additional observations from a re-analysis of the deposited data

How the results depend on the processing

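The 12 main values were recomputed under 58 alternatives. The week-3 to week-0 ratios of the immunoglobulin share and of each locus stayed below 1 in every alternative. For the numbers of genes, kappa to lambda ratios and V gene shares, only the size of the shift was compared. In all, 39 alternatives stayed within the counting interval, or within 1.5 times for numbers of genes. TMM and median-of-ratios scaling shifted every log2 ratio by -0.11 and -0.09. The week-3 to week-0 ratio of the immunoglobulin share was 0.0749, against 0.0693 with TMM, 0.0704 with median-of-ratios, 0.0595 with summed FPKM, 0.0802 over constant genes, 0.0536 over V genes and 0.0777 without Igkv12-89. The heavy locus ratio was 0.108, against 0.1001 with TMM, 0.102 with median-of-ratios, 0.102 with summed FPKM and 0.0829 over V genes. The kappa locus ratio was 0.0490, against 0.0453 with TMM, 0.0461 with median-of-ratios and 0.0525 without Igkv12-89. Leaving out Igkv12-89 was chosen after seeing the data. So were the values without 1 gene of a V family, the IgG genes or a marker list, given with the families, classes and lists. These values stand outside the 58 alternatives. Among them, the week-3 to week-0 ratio of summed RPM was 0.537 for the plasma cell list and 1.02 without Jchain. It was 0.840 for the B cell list and 1.21 without Cd72, so that both lists went from below to above 1. The number of members called lower was 101, and lay between 81 with a fold limit of 4 and 105 with no minimum on reads. With at least 20 reads, 0 members were called higher, since Ighg3 and Ighv2-5 have fewer. The kappa to lambda ratio at week-0 was 15.8, against 19.2 over constant genes, 10.8 over V genes and 14.0 by FPKM, and at week-3 it was 17.1, against 10.9 over V genes. The share of Igkv14-126 at week-0 was 31.5% of kappa V reads and 38.1% of kappa V FPKM. No paired analysis was possible because each time point has 1 library. Depth limits the week-3 values most, where 0 reads on a gene allow up to 0.772 RPM.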

Other observations

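Several V genes are so alike that their reads could not be assigned with certainty. Of the 175 members with a transcript of at least 100 bases, 107 shared no stretch of 100 bases with another transcript, and 5 shared more than 50% of their stretches. These 5, chosen here by their sequence, were Ighv1-62-2, Ighv1-71, Igkv6-20, Igkv8-16 and Igkv8-23-1, and the most reads among them were the 33 of Igkv6-20 at week-0. A further 32 rows are annotated as immunoglobulin genes in GENCODE M21 under names that the rule does not match, and 2 of them were detected, each by 1 read, 1 in either library.

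Of all 178 members, 25 had more RPM at week-3 than at week-0. They held 78 reads in the week-3 library, and 22 of them had fewer than 10 reads over both libraries.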
